A study of Mus musculus with 6 samples.

Results

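The enzymes and partner proteins that write, copy and erase cytosine methylation in DNA were followed in primary osteoblasts of wild-type mice and of mice lacking the TET enzymes. The group holds 10 of the 55471 genes in the count table, chosen by name for their role and not by a cutoff on their values: the erasers Tet1, Tet2 and Tet3, the CXXC-domain genes Cxxc4 and Cxxc5, the glycosylase gene Tdg, the maintenance genes Dnmt1 and Uhrf1, and the de novo methyltransferase genes Dnmt3a and Dnmt3b. All 10 were found, and 9 passed the filter on low counts. Cxxc4 did not, and its counts are given without a test.

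Polyadenylated RNA was sequenced from osteoblasts of 3-day-old C57BL/6 mice, with 3 libraries of wild-type mice (WT) and 3 of triple conditional knockout mice (TCKO). The TCKO mice carried Prx1-Cre and were homozygous for floxed Tet1, Tet2 and Tet3. Prx1-Cre is a recombinase driven by a promoter active in limb and calvarial mesenchyme, so cells of other lineages in the culture keep intact alleles. The labels do not say whether the WT mice carried floxed alleles or Cre. Cells were released from calvarial bone by enzyme digestion and kept in culture for 3 days before RNA extraction. Nothing in the labels says that the 3 libraries of a genotype came from separate animals or cultures, so the p-values measure the spread between these libraries, which may be technical. In RNA from a whole culture, fewer cells of a type and less RNA per cell cannot be told apart.

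Cytosine methylation at CpG sites is set by DNMT3A and DNMT3B and is copied onto the new strand after replication by DNMT1, which UHRF1 guides to hemimethylated sites. TET enzymes oxidise 5-methylcytosine to 5-hydroxymethylcytosine and further products, using 2-oxoglutarate, iron and oxygen. The most oxidised products are cut out by TDG and replaced through base excision repair, while sites that maintenance does not copy are diluted as cells divide. In bone-forming cells this cycle acts on regulatory regions of lineage genes.

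Library totals ranged from 8019999 to 10177214 counts. Levels are given as CPM, counts in a library brought to a size of 1000000, with the library totals of tested genes first scaled by TMM. A gene at 0 counts may have a true level of up to 3 counts, or 0.295 to 0.374 CPM on the unscaled totals. This limit covers counting error only. Within each genotype replicates 1 and 2 were much closer to each other (chi-square per degree of freedom of 1.69 in WT and 2.04 in TCKO) than to replicate 3 (between 16.5 and 23.3), so they add little independent spread. Xist reached 4583 counts in TCKO replicate 3, where the Y-linked Ddx3y was at 0. The other 5 libraries had at most 4 counts of Xist and at least 675 of Ddx3y. These are the patterns of female cells in TCKO replicate 3 and of male cells elsewhere. TCKO replicate 3 therefore shared no animal with TCKO replicates 1 and 2. Mitochondrial transcripts took 2.22% and 2.47% of counts in the replicate 3 libraries and at most 1.24% elsewhere. For each gene named as passing, the fit with replicates 1 and 2 summed is given where it ends the call, as are single libraries without which the call is lost. In the proliferation list these are given for the count. For the cell type markers they are not given.

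To describe the order of the members, levels were compared per length as RPKM (reads per kilobase of exon, scaled to library size). Cxxc5 was the highest member in WT, at 32.2 ± 1.69 RPKM (SD, n = 3), which was above the mean RPKM of 87.5% of the tested genes. Dnmt1 followed at 9.50 ± 1.36 RPKM and Uhrf1 at 5.76 ± 0.422 RPKM. These 3 were expressed above the median tested gene, and all others were below it.

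Dnmt3a (4.26 ± 0.516 RPKM), Tet3 (3.48 ± 0.187 RPKM) and Tdg (2.76 ± 0.172 RPKM) formed the middle of the WT order. Tet2 reached 1.12 ± 0.158 RPKM and Tet1 0.838 ± 0.0674 RPKM, so Tet3 was the highest of the 3 Tet genes. Dnmt3b stood at 0.393 ± 0.134 RPKM, and Cxxc4 at 0.0324 ± 0.0176 RPKM was near the detection limit. No neighbours in this order overlapped between WT libraries. In the libraries labelled TCKO the order was the same except that Tet3 (4.95 ± 0.427 RPKM) stood above Dnmt3a (4.07 ± 0.631 RPKM), and those 2 overlapped between libraries. Dnmt3a with Tdg and Tet1 with Dnmt3b also overlapped there and cannot be ordered.

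**Figure D1:**
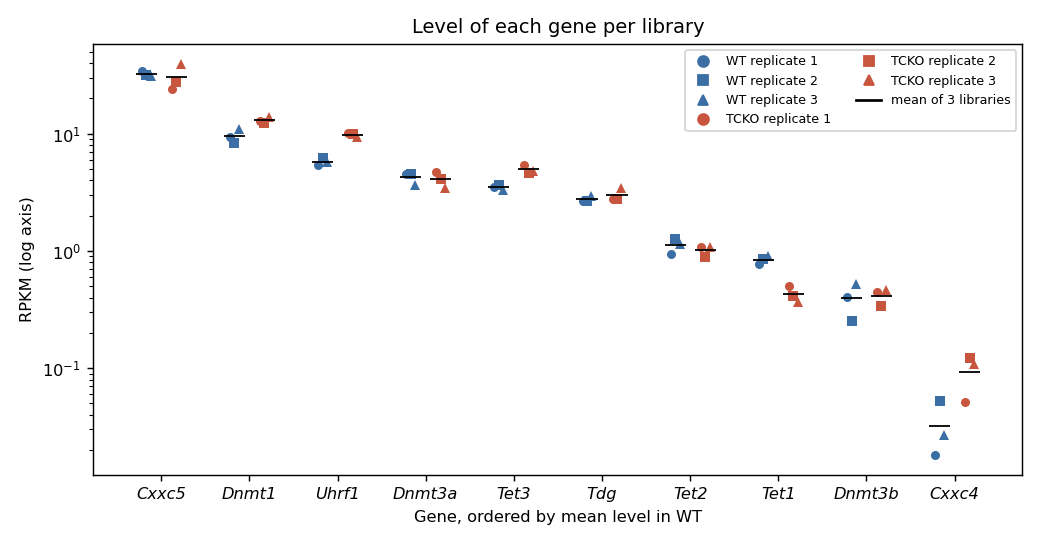
Level of each gene in each library as RPKM on a log axis, with WT in blue, TCKO in red and a symbol for each replicate number; black bars are means of 3 libraries. The genotypes are separated for Tet1, Tet3, Dnmt1 and Uhrf1 and overlap for the other 6 genes.

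To ask which members differed between the genotypes, all 13826 genes that passed the filter were tested with edgeR. At an adjusted p under 0.05, Uhrf1, Tet3 and Dnmt1 were higher and Tet1 was lower in the libraries labelled TCKO, while the other 5 tested members did not pass. Among all tested genes 17.7% passed in either direction, 9.07% higher and 8.63% lower. These same 4 members had no overlap in CPM between genotypes, which held for 38.3% of all tested genes. With the added requirement of a fold change over 2, 0 of the 9 members and 6.35% of all tested genes passed. Tet1 also met that requirement without WT replicate 1 (log2 fold change -1.03) or TCKO replicate 1 (-1.10). The median log2 fold change of the 9 members was 0.10, beside 0.00 for all tested genes.

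**Figure D2:**
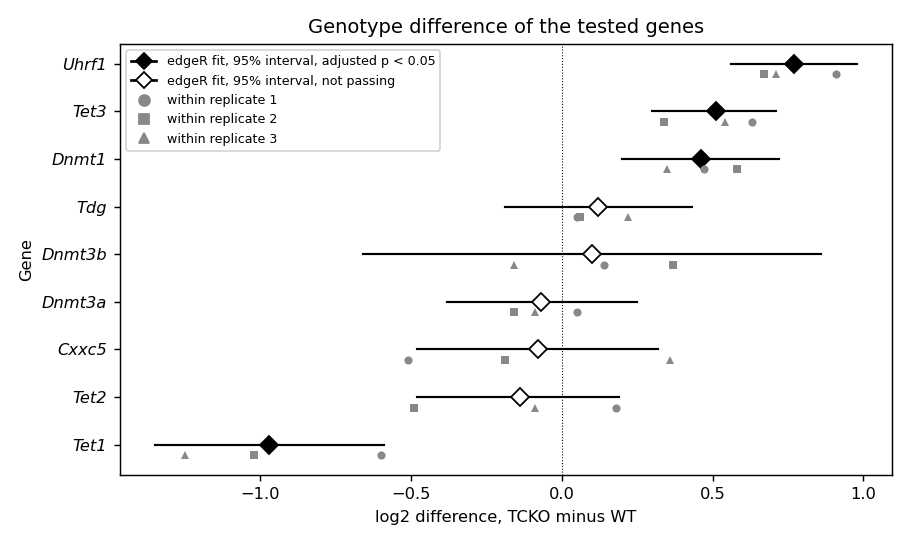
Log2 difference between TCKO and WT for the 9 tested genes: diamonds with lines are the edgeR fold change and its 95% interval (filled where the adjusted p is under 0.05), and grey symbols below them are the differences within each replicate number. Uhrf1, Tet3, Dnmt1 and Tet1 moved the same way in all 3 replicate numbers, and Cxxc5 lies at -0.51, -0.19 and 0.36 in replicates 1, 2 and 3.

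The erasers were the targets of the deletion and check the labels. Tet1 (ENSMUSG00000047146, GRCm38 chromosome 10, 62804570 to 62908996, minus strand) had 11.9, 13.1 and 13.9 CPM in WT (replicates 1, 2 and 3), and the libraries labelled TCKO had 7.76, 6.34 and 5.72 CPM. Every TCKO library was below every WT library, with a log2 fold change of -0.97 ± 0.16 (SE; 95% interval from -1.35 to -0.59; edgeR adjusted p = 0.00648). The reads left in the TCKO libraries amounted to 51 to 68 counts.

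Tet2 (ENSMUSG00000040943, chromosome 3, 133463679 to 133545139, minus strand) had 16.0, 21.3 and 19.3 CPM in WT and 18.2, 15 and 18.1 CPM in the libraries labelled TCKO. The genotypes overlapped, and the log2 fold change was -0.14 with a 95% interval from -0.48 to 0.19, which leaves out a loss of the size seen for Tet1 (edgeR adjusted p = 0.545).

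Tet3 (ENSMUSG00000034832, chromosome 6, 83362373 to 83459084, minus strand) had 58.7, 61.0 and 54.8 CPM in WT and 90.8, 77.3 and 79.9 CPM in the libraries labelled TCKO. All TCKO libraries were above all WT libraries, and the log2 fold change was 0.51 ± 0.09 (95% interval from 0.30 to 0.71; edgeR adjusted p = 0.00745). The calls of Tet1 and Tet3 were lost only when replicates 1 and 2 were summed, with edgeR adjusted p-values of 0.0797 and 0.0878, among 20 alternative fits. The counts run over all exons, 15.46 kb for Tet1, 16.87 kb for Tet2 and 16.70 kb for Tet3, and do not separate the floxed exons from the rest. A transcript that has lost an exon is still counted, so Tet2 and Tet3 counts can neither show nor deny the deletion. Of the 3 targeted genes, Tet1 was lower in the libraries labelled TCKO, and the directions given for other genes are those between libraries as labelled.

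The balance between transcripts of the 3 eraser genes was taken from their RPKM. These count transcripts that have lost a floxed exon along with intact ones. The shares and sums therefore measure neither intact Tet RNA nor TET enzyme. Tet3 made up 67.2%, 63.4% and 61.6% of the summed Tet RPKM in WT (replicates 1, 2 and 3), while TCKO libraries gave 77.5%, 78.1% and 76.9%. The TCKO shares all lay above the WT shares, by 13.4 percentage points in the means (64.1% ± 2.86 against 77.5% ± 0.602, SD, n = 3). The two-sided exact permutation test gave p = 0.1, which is the smallest p that 3 against 3 libraries can give. Tet1 took 15.4% ± 1.30 of the sum in WT and 6.67% ± 0.642 in TCKO, and Tet2 took 20.5% ± 2.07 and 15.9% ± 1.17. The summed level was 5.44 ± 0.28 RPKM in WT and 6.39 ± 0.559 RPKM in TCKO, with no overlap (exact permutation p = 0.1). The lowest TCKO sum lay above the highest WT sum.

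**Figure D3:**
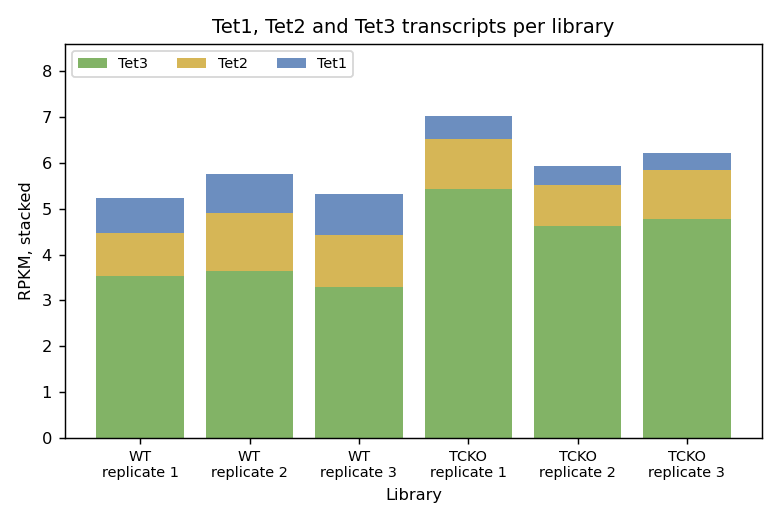
RPKM of Tet3 (green), Tet2 (yellow) and Tet1 (blue), counted over all exons including floxed ones, stacked for each of the 6 libraries. Sums run from 5.23 to 5.76 RPKM in WT and from 5.93 to 7.01 RPKM in TCKO, with a smaller blue and a larger green part in each TCKO library.

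The CXXC-domain genes belong to the group because their proteins bind unmethylated CpG and interact with TET2. Cxxc5 (ENSMUSG00000046668, chromosome 18, 35829397 to 35861688, plus strand) had 102, 95 and 92.7 CPM in WT and 71.7, 83.4 and 119 CPM in the libraries labelled TCKO. Replicates 1 and 2 of TCKO were below all WT libraries, replicate 3 was above them, and the fitted log2 fold change was -0.08 with a 95% interval from -0.48 to 0.32 (edgeR adjusted p = 0.785). The value rested on TCKO replicate 3, the library with the Xist counts. Without that library the log2 fold change was -0.31 (edgeR adjusted p = 0.0457), and without both replicate 3 libraries it was -0.35 (edgeR adjusted p = 6.9e-06). Those fits draw their spread partly or wholly from the close pairs of replicates.

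Cxxc4 (ENSMUSG00000044365, chromosome 3, 134236484 to 134262161, plus strand) starts 0.691 Mb beyond the end of Tet2 on the same chromosome, where it is read in the opposite direction. WT libraries held 2, 7 and 3 reads of it, and those labelled TCKO held 6, 13 and 13. The genotypes overlapped and 2 WT libraries were at or under 3 counts, so no fold is given from these levels. When the low-count filter was dropped, edgeR gave an adjusted p of 0.13 and DESeq2 one of 0.228.

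Of 7 other genes with a CXXC zinc finger, all tested, 1 was higher and 0 were lower, beside 9.07% and 8.63% of all tested genes. Their median log2 fold change was 0.12. The one that rose was Fbxl19, an F-box protein gene, at 33.1 CPM in WT and 45.7 CPM in TCKO (log2 fold change 0.46 ± 0.09, edgeR adjusted p = 0.0113). Its call was lost without WT replicate 2 (edgeR adjusted p = 0.0597) and with replicates 1 and 2 summed (0.115). The H3K4 methyltransferase genes Kmt2a and Kmt2b had log2 fold changes of 0.19 and 0.04 and did not pass.

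Tdg (ENSMUSG00000034674, chromosome 10, 82629828 to 82650799, plus strand), the glycosylase gene, had 14.3, 14.3 and 15.9 CPM in WT and 14.8, 14.9 and 18.5 CPM in the libraries labelled TCKO. The genotypes overlapped, and the log2 fold change was 0.12 with a 95% interval from -0.19 to 0.43 (edgeR adjusted p = 0.582). Tdg shares 367 exonic bases with Glt8d2 on the opposite strand, which had 19 to 35 counts per library, and whether reads were counted by strand is not stated.

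Of 13 base excision repair genes, 12 were tested, 1 was higher and 0 were lower, beside 9.07% and 8.63% of all tested genes. The median of the 12 was 0.24 on the log2 scale, and 10 of them had a positive fold change. Parp1, which senses DNA breaks, was the one that passed, at 36.9 CPM in WT and 46.6 CPM in TCKO (log2 fold change 0.34 ± 0.09, edgeR adjusted p = 0.04). It was lost without each of WT replicates 1 and 2 and TCKO replicates 1 and 2 (edgeR adjusted p from 0.101 to 0.151), with replicates 1 and 2 summed (0.314), and by DESeq2 (adjusted p = 0.0736). CPM did not overlap between genotypes for 5 of the 12 genes, a share near the 38.3% of all tested genes. Besides Parp1 these were the endonuclease gene Apex1 (0.36, edgeR adjusted p = 0.0642), the polymerase gene Polb (0.40, 0.0879), the uracil glycosylase gene Ung (0.58, 0.0957) and the glycosylase gene Neil3 (0.77, 0.101), which did not pass. Mbd4, the other thymine glycosylase gene, stood at 0.24 on the log2 scale (edgeR adjusted p = 0.438).

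Among the maintenance genes, Uhrf1 (ENSMUSG00000001228, chromosome 17, 56303321 to 56323486, plus strand) encodes the reader of hemimethylated DNA. It had 22.9, 26.4 and 24.2 CPM in WT and 43.1, 42.3 and 39.9 CPM in the libraries labelled TCKO. The genotypes were far apart relative to the spread between libraries, with a log2 fold change of 0.77 ± 0.09 (95% interval from 0.56 to 0.98; edgeR adjusted p = 0.0015). It passed in all 20 alternative fits, with fold changes from 0.72 to 0.83 and adjusted p-values from 6.2e-11 to 0.0453, and was the one member that passed with replicates 1 and 2 summed.

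Dnmt1 (ENSMUSG00000004099, chromosome 9, 20907209 to 20959888, minus strand), the maintenance methyltransferase gene, had 68.7, 60.9 and 80.7 CPM in WT and 95, 91.4 and 103 CPM in the libraries labelled TCKO. The TCKO libraries were all above the WT libraries, of which WT replicate 3 was the highest. The log2 fold change was 0.46 ± 0.11 (95% interval from 0.20 to 0.72; edgeR adjusted p = 0.0268). Its call held in 13 of 20 alternative fits. It was lost without WT replicate 1 (edgeR adjusted p = 0.102), WT replicate 2 (0.0923), TCKO replicate 1 (0.0799) or TCKO replicate 2 (0.0637), in a test against a 1.2-fold change (0.132), and with replicates 1 and 2 summed (0.213, or 0.0725 with a replicate block).

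Of 10 other methyltransferase genes and maintenance cofactors, 8 were tested, 3 were higher and 0 were lower, beside 9.07% and 8.63% of all tested genes. Their median log2 fold change was 0.35. Hells, the remodeller of the SNF2 family that is required for methylation of repeats, rose from 8.19 to 15.8 CPM (log2 fold change 0.94 ± 0.12, edgeR adjusted p = 0.00223). Cdca7, which recruits HELLS to chromatin, rose from 6.96 to 12.7 CPM (0.87 ± 0.21, edgeR adjusted p = 0.0256). Trim28, the corepressor of KRAB zinc-finger proteins, rose from 314 to 407 CPM (0.37 ± 0.08, edgeR adjusted p = 0.0166).

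The Hells call was lost only with replicates 1 and 2 summed (edgeR adjusted p = 0.0716). Those of Cdca7 and Trim28 were lost without each of WT replicates 1 and 2 and TCKO replicates 1 and 2 (edgeR adjusted p from 0.0514 to 0.102), and Cdca7 also without WT replicate 3 (0.0519). Both were lost as well when replicates 1 and 2 were summed (edgeR adjusted p of 0.197 for Cdca7 and 0.23 for Trim28). Uhrf2, the paralog of Uhrf1, stood at 0.33 on the log2 scale (edgeR adjusted p = 0.131), and Usp7, a deubiquitinase that binds DNMT1, of 0.09 (edgeR adjusted p = 0.54). Dnmt3l had a mean of 0.872 CPM in WT and 0.384 CPM in TCKO and was not tested, and Dnmt3c had 0 CPM in both genotypes.

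Maintenance genes are transcribed mainly in cycling cells, so a list of 20 proliferation genes was read beside them. All 20 were tested, 16 were higher and 0 were lower, beside 9.07% and 8.63% of all tested genes. Their median log2 fold change was 0.64. The replicative helicase gene Mcm6 stood at 1.07 ± 0.13 (edgeR adjusted p = 0.00154), Mki67 at 0.63 ± 0.17 (0.0423) and the sliding clamp gene Pcna at 0.43 ± 0.10 (0.0256). The 4 that did not pass were Ccnb1, Tyms, Rrm2 and Cdc6. The count fell to 5 without WT replicate 1, WT replicate 2 or TCKO replicate 2, to 6 without TCKO replicate 1, and to 1 with replicates 1 and 2 summed.

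The mean log2 CPM of the 20 genes was 4.36, 4.27 and 4.74 for WT (replicates 1, 2 and 3), while TCKO libraries gave 5.15, 5.11 and 5.13. The TCKO libraries were higher by 0.67 in the means beside a log2 fold change of 0.77 for Uhrf1. When this mean was subtracted from the log2 CPM of Uhrf1, the remainder was 0.17, 0.47 and -0.13 in WT and 0.29, 0.30 and 0.20 in TCKO. These overlapped, with a difference of 0.09 (two-sided exact permutation p = 0.7). For Dnmt1 the remainder was lower in TCKO by 0.21 and did not overlap (exact permutation p = 0.1, the smallest possible), and for Hells it was higher by 0.25 (exact permutation p = 0.1). The remainders of Cdca7 (difference 0.16, exact permutation p = 0.6) and Trim28 (-0.3, exact permutation p = 0.3) overlapped between genotypes. The part of proliferation in the rise of Uhrf1, Dnmt1 and their cofactors was not tested beyond these differences.

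For the maintenance genes that rose, letters known from promoters of replication genes were searched, the E2F type sites TTTCCCGC, TTTCGCGC, TTTGCCGC and TTTGGCGC. The search ran on both strands of RefSeq promoter windows (GRCm38.p6, from 250 bases before to 50 after an annotated start). A window was given for 9 of the 10 members (14 windows), and 2 of these genes held a site, Dnmt1 and Uhrf1, as did 2 of 9 other maintenance genes, Hells and Cdca7. Of 20 proliferation genes, 16 had a window and 7 held a site. Among all 27025 genes with a window 2.6% held a site, and among all 32851 windows 2.26% did. The stretches listed here show the site in capitals with 11 bases on each side, on the strand of the gene, because these 4 genes are the maintenance genes that moved and hold one. Trim28, which also rose, held none in its window, and the Dnmt1 window shown held another, TTTGGCGC, after the start. The other annotated windows of Dnmt1 and Uhrf1 held none.
Uhrf1 (chr17:56304117-56304146, plus strand): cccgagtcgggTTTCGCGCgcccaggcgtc
Dnmt1 (chr9:20952824-20952853, minus strand): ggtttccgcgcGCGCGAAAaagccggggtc
Hells (chr19:38930917-38930946, plus strand): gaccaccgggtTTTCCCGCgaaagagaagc
Cdca7 (chr2:72476137-72476166, plus strand): tgcgtcccggcGCGGGAAAgccggtggccc

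The capitals of Dnmt1 are TTTCGCGC read on the opposite strand, the same letters as in Uhrf1, which 0.323% of all windows held. The Uhrf1 and Dnmt1 sites lie 185 and 219 bases before the start of one of the annotated transcripts, and those of Hells and Cdca7 lie 62 and 71 bases before it. In the GENCODE M21 annotation, exons of the same gene cover all 30 bases of the Dnmt1 and Hells stretches. They cover 8 bases of the Cdca7 stretch and 0 of the Uhrf1 stretch. A match is a description of letters and shows no binding. The Tet1, Tet2, Tet3, Dnmt3a, Dnmt3b, Tdg and Cxxc4 windows held none of these letters. Those of Tet1 and Tet3 lie within the gene span, away from its outermost start.

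The de novo methyltransferase genes did not pass. Dnmt3a (ENSMUSG00000020661, chromosome 12, 3806007 to 3914443, plus strand) had 75.7, 76.0 and 61.0 CPM in WT and 78.2, 67.9 and 57.2 CPM in the libraries labelled TCKO. The genotypes overlapped, with replicate 3 the lowest of each, and the log2 fold change was -0.07 with a 95% interval from -0.38 to 0.25 (edgeR adjusted p = 0.777). Dnmt3b (ENSMUSG00000027478, chromosome 2, 153649450 to 153687730, plus strand) had 17, 13 and 22 counts in WT and 20, 14 and 21 counts in TCKO, which overlapped. At this depth the log2 fold change of 0.10 had a 95% interval from -0.66 to 0.86 (edgeR adjusted p = 0.86). Changes within that interval were not excluded.

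A list of 9 genes, all tested, took in readers of methylated CpG and other genes with a methyl-binding domain, not all of them such readers. Of these 0 were higher and 2 were lower, beside 9.07% and 8.63% of all tested genes. The median log2 fold change was -0.05. Both that fell encode zinc-finger readers of the Kaiso family. Zbtb4 fell from 136 to 88.6 CPM (log2 fold change -0.62 ± 0.10, edgeR adjusted p = 0.00557), and Zbtb38 fell from 112 to 64.1 CPM (-0.81 ± 0.17, edgeR adjusted p = 0.0155). The third member of that family, Zbtb33, stood at 0.12 on the log2 scale (edgeR adjusted p = 0.525). With replicates 1 and 2 summed both calls were lost (edgeR adjusted p of 0.11 for Zbtb4 and 0.0994 for Zbtb38). The Zbtb38 call was also lost without TCKO replicate 2 (edgeR adjusted p = 0.0535), and its difference was -0.39 and -0.62 in replicates 1 and 2 against -1.40 in replicate 3. The methyl-binding domain genes Mbd1, Mbd2, Mbd3, Mbd5 and Mbd6 lay between -0.27 and 0.05 and did not pass.

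Of 15 genes that make or clear TET cofactors and inhibitors, 14 were tested, 2 were higher and 1 was lower, beside 9.07% and 8.63% of all tested genes. Their median log2 fold change was 0.11. Idh2, the mitochondrial isocitrate dehydrogenase that yields 2-oxoglutarate, rose from 35.7 to 63.4 CPM (0.83 ± 0.19, edgeR adjusted p = 0.0216). Slc23a2, a transporter of ascorbate, which keeps TET iron reduced, fell from 60.0 to 37.8 CPM (-0.67 ± 0.11, edgeR adjusted p = 0.00572).

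The Slc23a2 call was lost only with replicates 1 and 2 summed (edgeR adjusted p = 0.0765). The Idh2 call was lost without each of WT replicates 1 and 2 and TCKO replicates 1 and 2 (edgeR adjusted p from 0.0545 to 0.0831) and with replicates 1 and 2 summed (0.19). Idh1, the cytosolic enzyme, stood at -0.39 on the log2 scale (edgeR adjusted p = 0.145). The succinate dehydrogenase genes Sdha, Sdhb, Sdhc and Sdhd lay between -0.02 and 0.16 and did not pass.

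Of 16 genes of the methyl donor cycle, which makes S-adenosylmethionine, 13 were tested, 0 were higher and 1 was lower, beside 9.07% and 8.63% of all tested genes. Their median log2 fold change was 0.02. Mat2a and Mat2b, which encode the synthetase of the methyl donor, had log2 fold changes of 0.05 and 0.02 and did not pass.

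Of 12 TET partners and cytosine deaminases, 9 were tested, 1 was higher and 1 was lower, beside 9.07% and 8.63% of all tested genes. Their median log2 fold change was 0.03. Apobec3, a deaminase that restricts retroviruses, rose from 4.33 to 8.68 CPM (1.0 ± 0.20, edgeR adjusted p = 0.014), a call lost without WT replicate 1 (0.0535) or TCKO replicate 1 (0.0622) and with replicates 1 and 2 summed (0.113). Gadd45g, a stress-induced gene linked to demethylation, fell from 259 to 175 CPM (-0.57 ± 0.15, edgeR adjusted p = 0.0394). That call was lost in each fit without 1 library other than TCKO replicate 3 (edgeR adjusted p from 0.0544 to 0.134) and with replicates 1 and 2 summed (0.317). Ogt, the glycosyltransferase that binds TET2 and TET3, stood at -0.11 on the log2 scale (edgeR adjusted p = 0.51).

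**Figure D4:**
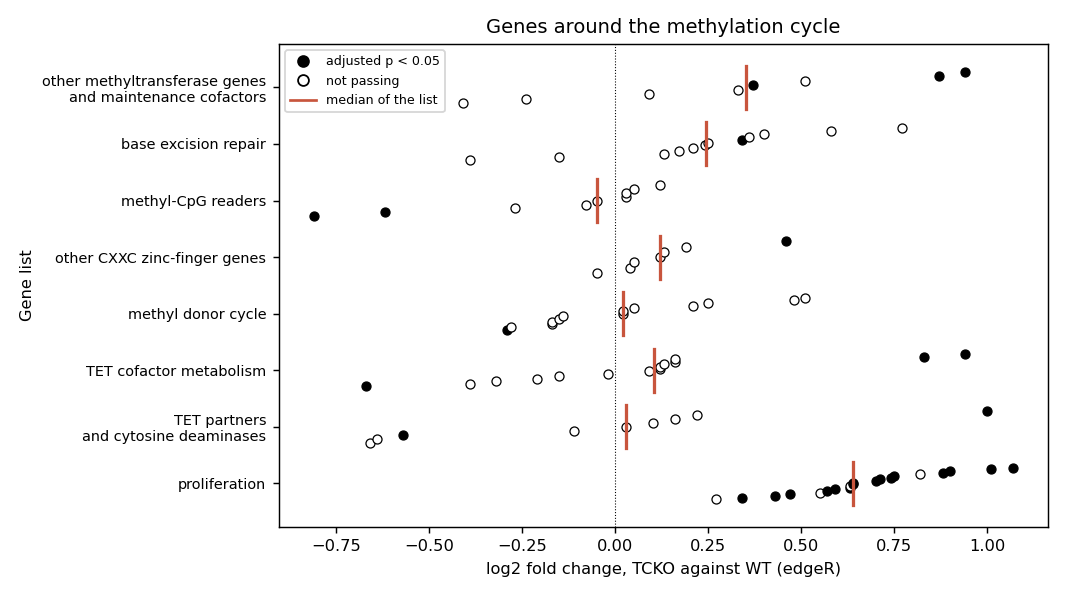
Log2 fold change (TCKO against WT, edgeR) of every tested gene in the lists around the methylation cycle, filled where the adjusted p is under 0.05, with a red bar at each list's median. The proliferation list lies wholly to the right of 0 with a median of 0.64, and the other medians lie between -0.05 and 0.35.

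The labelled cell type was checked against marker lists. Calls of these markers come from the fit over all 6 libraries alone, and their dependence on single libraries was not examined. Osteoblast markers summed to between 32000 and 33400 CPM in WT and between 17600 and 31700 CPM in the libraries labelled TCKO. Most of the sum was Col1a1 (means of 22300 CPM in WT and 14600 CPM in TCKO) and Col1a2 (8800 and 4870 CPM). Spp1 went the other way, from a mean of 1170 to 7170 CPM. Of 10 such markers, 7 were tested, 1 was higher and 3 were lower, beside 9.07% and 8.63% of all tested genes. Those lower were the alkaline phosphatase gene Alpl (log2 fold change -3.54, edgeR adjusted p = 0.00743), the collagen gene Col1a1 (-0.61, 0.038) and the lineage factor gene Runx2 (-0.45, 0.00397). The one higher was Spp1, the osteopontin gene (2.62, edgeR adjusted p = 0.00669), and the late markers Bglap and Dmp1 had at most 3 counts in every library. All 5 chondrocyte markers passed as lower in TCKO, beside 8.63% of all tested genes. Their sum was between 6170 and 8040 CPM in WT and between 679 and 956 CPM in TCKO.

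Macrophage and blood markers summed to between 397 and 703 CPM in WT and between 160 and 536 CPM in TCKO. Of the 7 tested, 0 were higher and 2 were lower, beside 9.07% and 8.63% of all tested genes. The haemoglobin genes Hbb-bs and Hba-a1 were at most at 3 counts. Limb and calvarial mesenchyme markers, where Prx1-Cre acts, overlapped in sum, at 1250 to 1620 CPM in WT and 1230 to 1440 CPM in TCKO. Of these 6 markers, all tested, 1 was higher and 1 was lower, beside 9.07% and 8.63% of all tested genes. Thy1 was higher (log2 fold change 1.18, edgeR adjusted p = 0.0417) and Prrx1 was lower (-0.43, 0.0392).

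The endothelial list summed to 2.10 to 3.27 CPM in WT and 34.5 to 95.1 CPM in TCKO, and that rise was carried by Kdr, a VEGF receptor gene, with a mean of 0.779 CPM in WT and 53.5 CPM in TCKO. The defining endothelial markers Pecam1, Cdh5, Tek, Tie1 and Emcn had mean levels under 1 CPM in both genotypes and were not tested. Skeletal muscle markers summed to 7.58 to 24.7 CPM in WT and 30.2 to 80.5 CPM in TCKO, and that rise was carried by the actin gene Acta1 (6.42 and 55.8 CPM). The other tested muscle gene, Myh3, stood at -0.13 on the log2 scale (edgeR adjusted p = 0.924), and the muscle regulator genes Myod1 (0.585 and 0.315 CPM) and Myog (1.12 and 0.719 CPM) were not higher in the means. Schwann cell and neuron markers summed to 61.0 to 78.2 CPM in WT and 73.5 to 84.2 CPM in TCKO, and all 5 epithelial markers had at most 3 counts. The part of cell makeup in the differences of the methylation genes was not tested.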

How the data were processed

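The deposited table holds raw counts per gene, which the authors made from polyadenylated RNA reads with STAR 2.7.0e and featureCounts 2.0.0 against GRCm38 (submitters' processing notes; Ensembl annotation per the study's methods), and a deposited exon length, the union of exons. Counting by strand is not stated, and 0 columns of sample values were left unassigned. Gene symbols were found for 99.4% of 55471 genes.

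Counts were tested with edgeR 4.0.16 in R 4.3.3 (filterByExpr, TMM, quasi-likelihood test of genotype over 6 libraries, Benjamini-Hochberg adjustment over 13826 genes). Standard errors came from the F statistic. CPM and RPKM used TMM-scaled library sizes, and RPKM also used the deposited length. The procedure was tested on simulated data. Permutation tests were exact and two-sided over libraries. The members and lists were chosen with earlier results of these data known. Named were the members, list genes with an adjusted p under 0.05, list genes a count needed, and for each member the 3 genes most correlated with it. A few genes that this rule names are counted but not reported here.

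Same-numbered libraries deviated together across genes (correlations of 0.20, 0.21 and 0.35), so the replicate number was run as a block. Because WT replicate 1 with TCKO replicate 2 (0.19) and WT replicate 2 with TCKO replicate 1 (0.22) were as close, the numbers mainly set replicate 3 apart. Alternatives were other scalings, filters and tools (DESeq2 1.42.0), a 1.2-fold test (glmTreat), blocks, summed replicates and libraries left out.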

Additional observations from a re-analysis of the deposited data

How the results depend on the processing

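Across 20 alternative fits Tet1 kept a log2 fold change between -1.10 and -0.82, Tet3 between 0.43 and 0.55, Dnmt1 between 0.37 and 0.57 and Uhrf1 between 0.72 and 0.83. The replicate block left 4 members passing (edgeR adjusted p of 0.00902, 0.00642, 0.0067 and 0.00174 for Tet1, Tet3, Dnmt1 and Uhrf1) and changed no other member's call. It left the gain in the Tet3 share at 13.4 points (exact sign-flip p = 0.25, the smallest that 3 pairs allow). Leaving out single libraries gave 3 to 5 passing members (adding Cxxc5, at -0.31, without TCKO replicate 3), 0 to 1 with a fold over 2, and gains in the Tet3 share from 12.1 to 14.9 points. With replicates 1 and 2 summed, 1 member passed (Uhrf1), and with a block added 1 member, Tet1, passed with a fold over 2. Values on the other side of 0, none of which passed, were 0.05 for Dnmt3a without TCKO replicate 3 (-0.18 to 0.05 without single libraries), -0.15 for Dnmt3b without WT replicate 2 (-0.15 to 0.36), and for Cxxc5 0.04 and 0.00 with replicates 1 and 2 summed, without and with a block, and 0.07 without TCKO replicate 1. The number of passing genes, 2447, became 1260 against a 1.2-fold change, 4272 with a batch term for replicate 3, 386 and 1150 with replicates 1 and 2 summed, without and with a block, 6237 without both replicate 3 libraries, and 1153 to 3122 without single libraries. The summed fits have fewer samples. The other causes were not tested. Depth limits Cxxc4 and Dnmt3b, with at most 22 counts per library.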

Other observations

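For each tested member the genes whose log2 CPM followed it most closely over the 6 libraries were listed (up to 3), among 9255 genes with a mean of at least 100 counts. These are descriptions over points that share libraries, and with 6 libraries many genes follow any member closely. Uhrf1 ran with Tnks2 and Oxsr1 (Pearson's r of at least 0.9974) and Dnmt1 with Bambi, Nup62 and Abcf1 (0.997 to 0.999). Tet1 ran with Mcur1, Nfib and Serinc5 (at least 0.9945), Tet2 with Gabpb1, Rb1 and Commd6 (at least 0.9693) and Tet3 with Shroom4, Ago2 and Rad54l2 (at least 0.9913). Dnmt3a ran with Kat6b, Itpr1 and Sgsm2 (at least 0.985), Dnmt3b with Cops8, Sirt6 and Tada2a (at least 0.9648), Tdg with Tnfrsf12a, B3gat3 and Ftl1 (at least 0.9953) and Cxxc5 with Slc4a2, Ppox and Syde1 (at least 0.992).

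CpG sites were counted in the 250 bases before an annotated start, which are part of each RefSeq promoter window. The Tet1 and Tet3 windows (62887275 to 62887574 and 83441629 to 83441928) lie inside the gene spans given above. The outermost starts of these genes were not examined. The single windows of Tet1, Tet2 and Tet3 held 15, 51 and 17 CpG sites, those of Dnmt3b, Tdg and Cxxc4 held 21, 19 and 20, and the Uhrf1 and Dnmt1 windows shown in the report held 30 and 26.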
